A study of Danio rerio with 10 samples.

Results

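The microRNAs miR-223 and miR-142 were followed in zebrafish (Danio rerio) small RNA libraries through 3 hairpin entries, mir223, dre-mir-142a and dre-mir-142b. The entries were taken by name from a table of 431 microRNA hairpins, and all 3 had at least 1 count in every small RNA library. The series measured small RNA in sorted neutrophils, in sorted keratinocytes and in whole embryos, and messenger RNA in sorted neutrophils carrying miR-199 or its vector control. All fish were of the AB background at 3 days post fertilization. The small RNA libraries came from wild type fish whose neutrophils (1 library, lyzC+) or apical keratinocytes (1 library, Krt4+) carried GFP, and from whole embryos (3 libraries). The mRNA libraries came from GFP-marked neutrophils of transgenic fish, with 3 miR-199 libraries and 2 vector libraries (genotypes overexpressing miR199 and overexpressing vector). The labels name no change to miR-223 or miR-142 in any group. Cells were isolated by fluorescence-activated sorting, and the number of fish behind a library is not given in the sources used here.

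MicroRNAs are cut from a longer primary transcript as a hairpin and then as a short mature strand, which guides Argonaute proteins to partly complementary messenger RNAs and lowers their output. In mammals miR-223 is a marker of the myeloid lineage, abundant in neutrophils, where it restrains their activation. miR-142 is expressed across blood cell lineages in mammals and zebrafish, and the zebrafish genome holds a pair of copies, a and b.

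In the authors' coordinates (GRCz11), mir223 is a hairpin of 99 bases on chromosome 5, minus strand, from 22234407 to 22234505, with the identifier ENSDARG00000080589. The copy dre-mir-142a (ENSDARG00000082167) lies on the plus strand of the same chromosome at 3170736 to 3170826, 91 bases long and 19.1 megabases away. The copy dre-mir-142b (ENSDARG00000082467) is on chromosome 15, minus strand, from 15383898 to 15383983, and is 86 bases long. None of the 3 hairpins overlapped another gene listed in the mRNA tables. The nearest listed genes were fdx1b, 7762 bases from mir223, supt4h1, 43137 bases from mir142a, and ca4b, 6917 bases from mir142b. In the RefSeq annotation of a later assembly (GRCz12tu), mir223 falls within the span of the long noncoding RNA gene LOC137495581 and in part overlaps the span of arhgap20b. In the same annotation mir142b falls within the noncoding RNA genes LOC141377804 and LOC141377799, and no gene overlaps mir142a.

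Depth differed widely between the small RNA libraries, and it sets the counting error of every small RNA value that follows. The neutrophil library held 20864 counts and the keratinocyte library 86279, against 867672 to 1170260 in the whole-embryo libraries. A single count was therefore worth 47.9 CPM (each count divided by its library total and multiplied by 1000000) in the neutrophil library, 11.6 CPM in the keratinocyte library and 0.855 to 1.15 CPM in whole embryo. Intervals given for single libraries are 95% intervals that cover counting error only, exact Poisson for CPM, exact binomial for ratios of counts and Wilson for shares. Each sorted group had 1 library, so its differences have no replicate check and no p-value is given for them. The labels do not say whether replicates came from separate clutches, so the spread between them may be technical.

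The members together made up 14.5% of the neutrophil library and 0.101% of the keratinocyte library, against 0.0240% to 0.0278% of the whole-embryo libraries. Read counts of the members were 3021 in neutrophils, 87 in keratinocytes, and 322, 323 and 208 in whole embryo. In whole embryo these values cannot separate a change in the number of blood cells from a change in the RNA each cell holds, because fewer cells of a type and less RNA per cell cannot be told apart in bulk samples.

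miR-223 led the neutrophil library. It held 2697 counts there, or 129266 CPM (interval 124433 to 134238), and 20 counts or 232 CPM (142 to 358) in the keratinocyte library. The whole-embryo libraries held 110, 145 and 81 counts, which is 94.0, 125 and 93.4 CPM. The 3 whole-embryo values lay within a factor of 1.33 of each other, and both sorted libraries lay above all of them. By rank among the listed entries, mir223 was number 1 in neutrophils and number 73 in keratinocytes.

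Set against whole embryo, mir223 had the largest neutrophil ratio of all 213 entries compared, which were those averaging 10 CPM or more in any group. Its CPM in neutrophils was 1232 times that of the summed whole-embryo counts (interval 1099 to 1384). As the difference of log2(CPM + 1) from the whole-embryo mean, this was 10.28, while the median of all compared entries was -0.85. In the keratinocyte library the ratio was 2.21 (interval 1.33 to 3.47), a log2 difference of 1.16 that did not reach a factor of 4. Under median-of-ratios scaling, which divides by the median ratio of entries to a reference library, the same log2 difference was 2.26 and did reach it. Scaling moved all keratinocyte ratios: the median shift over the compared entries was 0.80 with TMM (trimmed mean of M values) and 1.09 with median-of-ratios scaling, against -0.39 and 0.26 for the neutrophil ratios. The mir223 level in keratinocytes was 0.179% of its level in neutrophils.

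**Figure D1:**
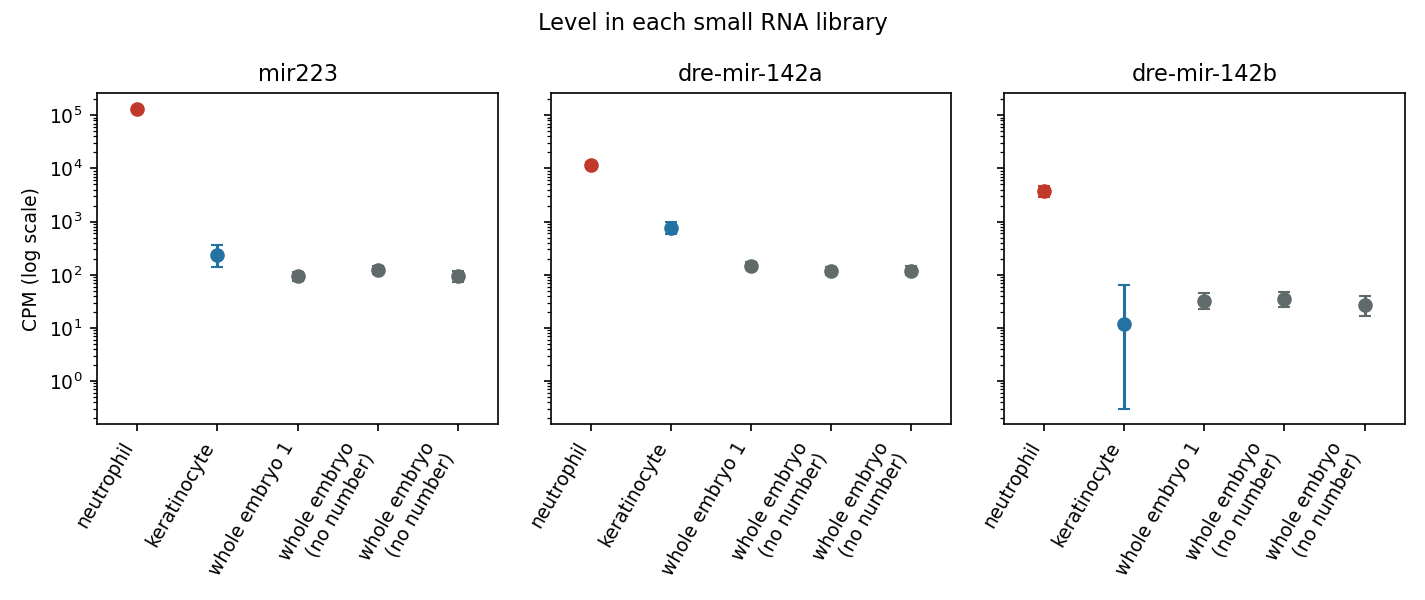
CPM of mir223, dre-mir-142a and dre-mir-142b in each of the 5 small RNA libraries, on a shared log axis, with 95% exact Poisson intervals. The neutrophil library is highest for all 3 entries, mir223 reaches 129266 CPM there, and the interval of dre-mir-142b in keratinocytes, from 1 count, spans the whole-embryo values.

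The copy dre-mir-142a was high in both sorted libraries. The neutrophil library held 246 counts, or 11791 CPM (interval 10363 to 13360), and the keratinocyte library 66 counts, or 765 CPM (592 to 973). The whole-embryo libraries held 174, 138 and 104 counts, which is 149, 119 and 120 CPM. The sorted libraries did not overlap with whole embryo, and the keratinocyte level was 6.49% of the neutrophil level. Relative to the summed whole-embryo counts the neutrophil level was 90.7 times higher (interval 77.2 to 106) and the keratinocyte level 5.89 times higher (4.47 to 7.65). The log2 differences of 6.51 and 2.57 placed it number 7 of 213 in neutrophils and number 8 of 213 in keratinocytes.

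The copy dre-mir-142b was high in the neutrophil library and was represented by a single count in the keratinocyte library. The neutrophil library held 78 counts, or 3738 CPM (interval 2955 to 4666), and the keratinocyte library 1 count, or 11.6 CPM (0.293 to 64.6). The whole-embryo libraries held 38, 40 and 23 counts, which is 32.5, 34.4 and 26.5 CPM. The neutrophil ratio to the summed whole-embryo counts was 119 (interval 87.0 to 161), a log2 difference of 6.87 and number 4 of 213. In keratinocytes the ratio was 0.367 with an interval of 0.00921 to 2.09, which covers counting error but neither scaling nor spread between replicates. The interval held 1, so at this depth the copy was found neither lower nor higher than in whole embryo. Its log2 difference of -1.34 was also the median of all compared entries in that library.

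Read together, 3 of the 3 members were at least 4-fold higher in neutrophils and outside the whole-embryo range, a call made for 17.4% of the 213 entries in that direction and for 55.4% in either. The share called higher depends in part on the filter of 10 CPM. A single neutrophil count, 47.9 CPM, passes it, so entries scarce elsewhere could enter through that library alone, where they were already high. Without the filter, 37 of 270 entries were called higher in neutrophils. The shares called lower or in either direction include entries with 0 counts in a sorted library, whose place rests on the added 1 CPM. For example, dre-mir-204-1 averaged 4.30 CPM in whole embryo, below the worth of a single neutrophil count, and was called lower in neutrophils at 0 counts. Those shares therefore depend in part on depth. In keratinocytes 1 of the 3 was called higher, dre-mir-142a, where the background was 5.63%, and none was called lower, where it was 39.0%; in either direction it was 44.6%. Between the sorted libraries, all 3 members were at least 4-fold higher in neutrophils than in keratinocytes, against 30.5% of entries that were higher, 21.1% that were lower and 51.6% in either direction. With 1 library each, this compares libraries rather than cell types. The ratios of neutrophil to keratinocyte CPM were 558 for mir223 (interval 360 to 914), 15.4 for dre-mir-142a (11.7 to 20.5) and 323 for dre-mir-142b (56.2 to 12902).

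**Figure D2:**
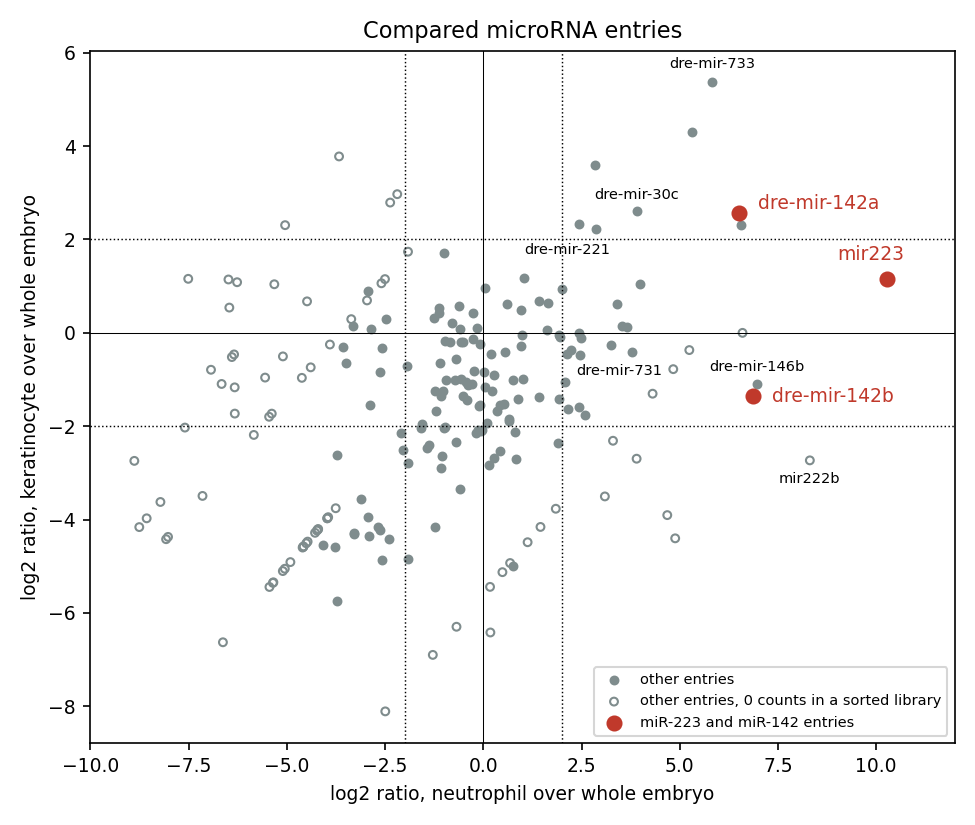
Log2 ratio to whole embryo in the neutrophil library (horizontal axis) and in the keratinocyte library (vertical axis) for the 213 compared entries, with dotted lines at 4-fold. All 3 members lie right of the 4-fold line, mir223 farthest at 10.28, and only dre-mir-142a among them lies above it, at 2.57; open points have 0 counts in a sorted library, so their place rests on the added 1 CPM.

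The balance between the 2 microRNAs differed between libraries. For each miR-142 count, both copies summed, there were 8.32 mir223 counts in neutrophils (interval 7.42 to 9.37) and 0.299 in keratinocytes (0.172 to 0.498). The whole-embryo libraries had 0.519, 0.815 and 0.638, a mean of 0.657 ± 0.149 (SD, n = 3). The neutrophil value thus lay above every whole-embryo value and the keratinocyte value below every one. This ratio is taken within a library, so it does not depend on how libraries were scaled.

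The balance between the copies of miR-142 varied less among neutrophils and whole embryo. The a copy gave 75.9% of the miR-142 counts in neutrophils (246 of 324, interval 71.0% to 80.3%) and 98.5% in keratinocytes (66 of 67, 92.0% to 99.7%). In whole embryo it gave 82.1%, 77.5% and 81.9%, a mean of 80.5% ± 2.57 (SD, n = 3). The neutrophil interval overlapped the whole-embryo range, and the keratinocyte interval lay above all 4 other values. Counts were deposited per hairpin, and how reads that match both copies were counted is not given in the sources used here, so the split between the copies is uncertain.

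**Figure D3:**
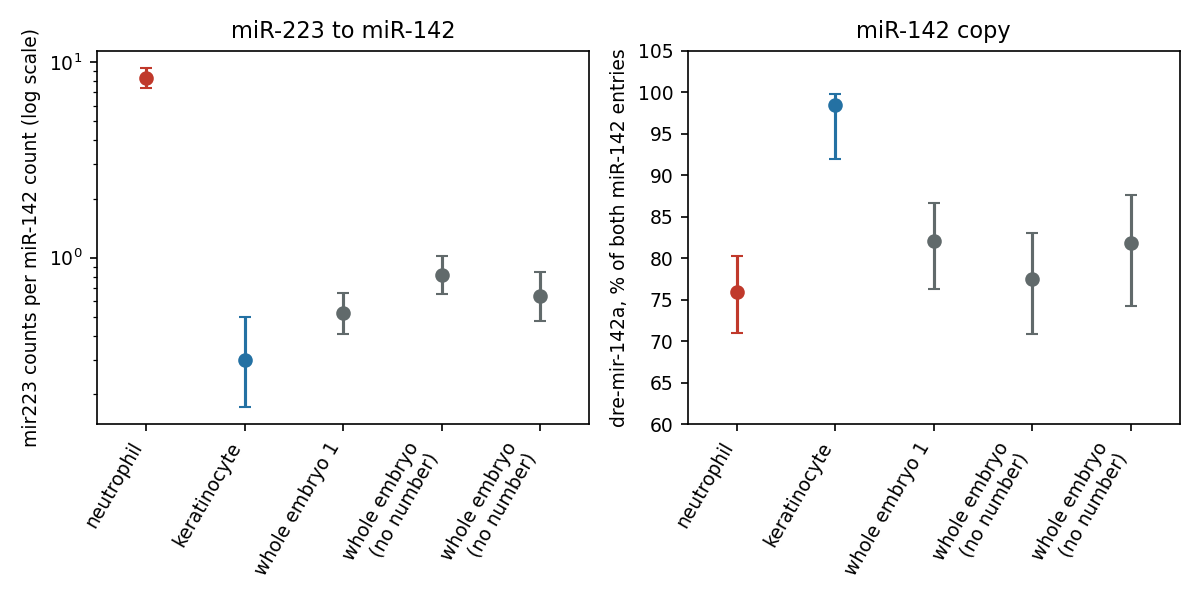
Left, mir223 counts per miR-142 count (both copies summed, log axis); right, dre-mir-142a as a percentage of both miR-142 entries (axis from 60%), in each small RNA library with 95% exact binomial (left) and Wilson (right) intervals. The neutrophil library stands above whole embryo on the left at 8.32, and the keratinocyte library stands above the others on the right at 98.5%.

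A list of other microRNAs taken as blood entries gave a mixed picture beside the members. Not all of its entries are specific to blood: dre-mir-27b had 11625 CPM in keratinocytes, above its 6662 CPM in neutrophils. Of 14 compared entries for miR-21, miR-24, miR-27, miR-144, miR-146, miR-150, miR-155 and miR-451, 7 were at least 4-fold higher in neutrophils and 3 lower, with a median log2 difference of 0.95, where 17.4% of all compared entries were higher and 38.0% lower and the median was -0.85. In keratinocytes 1 was higher and 5 lower, with a median of -1.05, where 5.63% of all compared entries were higher and 39.0% lower and the median was -1.34. Of the 14 blood entries, 2 had 0 counts in neutrophils and 3 had 0 counts in keratinocytes. All of those were called lower there, and their log2 differences rest on the added 1 CPM. The erythroid microRNA dre-mir-451 had 0 counts in neutrophils, which allows up to 0.0144% of the library, and 2 counts in keratinocytes, while the other erythroid entry, dre-mir-144, had 3 counts in neutrophils and 7 in keratinocytes. The dre-mir-144 count is worth 81.1 CPM in keratinocytes, against 1740, 2139 and 2073 CPM in whole embryo, and was called lower in both sorted libraries. Of the epithelial microRNAs, 1 entry was abundant in the neutrophil library, dre-mir-205, with 1950 counts. That was 93462 CPM, against 44240 CPM in keratinocytes and 17271, 21688 and 32958 CPM in whole embryo. The 9 epithelial entries summed to 9.88% of the neutrophil and 6.30% of the keratinocyte library, against 4.15% to 5.53% in whole embryo. Nearly all of the neutrophil sum was dre-mir-205. Of these 9 entries 6 were lower and 1, dre-mir-205, was higher in neutrophils, and none was called in keratinocytes. The dre-mir-205 log2 difference of 2.02 lay close to the 4-fold line, beside a median TMM shift of -0.39 for neutrophil ratios. Among the 6 lower entries, dre-mir-429b had 0 neutrophil counts. Muscle entries summed to 0.0288% of the neutrophil library and 0.00464% of the keratinocyte library, against 0.0489% to 0.0770% in whole embryo. Neural entries summed to 0.714% of the neutrophil and 0.269% of the keratinocyte library, against 4.64% to 5.22% in whole embryo. The part of other cells in the members' values was not tested.

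The entries whose profiles over the 5 libraries lay nearest to those of the members were found by Euclidean distance of log2(CPM + 1), after the whole-embryo mean of each entry was subtracted. The search covered 71 entries with at least 10 neutrophil counts, and the figures are descriptions that mostly rest on the 2 sorted libraries. For dre-mir-142b the nearest entry was dre-mir-146b at a distance of 0.376, an entry of the miR-146 family, which held 326 counts in neutrophils and 5 in keratinocytes. The keratinocyte value of dre-mir-142b rests on 1 count, so all its distances and the order of its neighbours are uncertain, as are its distances to the other members. The nearest to mir223 was also dre-mir-146b, but at 4.04, and next came mir222b, with 0 counts in keratinocytes, at 4.39 and dre-mir-733 at 6.23. For dre-mir-142a the nearest was dre-mir-30c at 2.70, before dre-mir-733 at 3.10 and dre-mir-221 at 3.67. A let-7 entry (ENSDARG00000082908) plots beside dre-mir-142a, but it had 5 counts in neutrophils and 1 in keratinocytes and so was not searched. After dre-mir-146b, dre-mir-142b was followed by mir222b at 2.09 and dre-mir-731 at 3.25. Among themselves the members lay 3.94 to 4.24 apart, and the copies of miR-142 were 3.94 apart.

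The mRNA tables list the same hairpins as genes, which gave a second readout of them in replicated neutrophil libraries of 12339928 to 17024134 counts. Those libraries were made with a low-input mRNA kit (SMART-Seq v4), which as a rule captures polyadenylated transcripts and not mature microRNAs. Whether strand was used in counting is not given in the sources used here, so reads of an unlisted transcript over a hairpin cannot be told apart from its precursor. The labelled cell type was checked first: 10 of 10 neutrophil markers had counts in every library and summed to 67732 to 76405 CPM in miR-199 and 88281 to 91944 CPM in vector libraries. Of these 10 markers 4 were called lower and none higher in miR-199 neutrophils by edgeR at an adjusted p under 0.05, a test that called 10.4% of all genes lower and 9.49% higher. Their part in the results below was not tested. The 5 macrophage markers in the tables summed to 0.304 to 3.03 CPM in miR-199 and 0.742 to 1.76 CPM in vector libraries, with mpeg1.1 and c1qa at 0. The 8 keratinocyte markers summed to 3.51 to 6.81 CPM in miR-199 and 4.45 to 8.52 CPM in vector libraries, with 4 at 0. Of the 5 erythroid markers 3 were at 0, and the sum was 6.77 to 20.8 CPM in miR-199 and 4.25 to 4.58 CPM in vector libraries, nearly all of it slc4a1a.

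Of 340 microRNA genes listed in the mRNA tables, 28 to 45 had counts in a library, and the members took most of them. They held 78.8%, 81.5% and 83.3% of all microRNA gene counts in miR-199 replicates 1, 2 and 3, and 72.2% and 76.0% in vector replicates 1 and 3. mir223 ranked first in all 5 libraries. The copies of miR-142 ranked between 2 and 4, with mir30e-2 or mir199-2a as the other gene in those places. In RPKM (CPM divided by the listed length in kilobases), mir223 averaged 297 ± 102 in miR-199 (SD, n = 3) and 132 ± 1.04 in vector neutrophils (SD, n = 2). For mir142a the RPKM was 168 ± 69.1 in miR-199 and 128 ± 19.1 in vector neutrophils, and for mir142b it was 153 ± 35.1 in miR-199 and 80.8 ± 5.51 in vector neutrophils. The listed length of mir223, 198 bases, counts the hairpin at 2 loci, on chromosome 5 and on an alternate sequence of it. With the same counts over a single locus, its RPKM would be larger.

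The level of mir223 was compared between miR-199 and vector neutrophils. Counts were 1148, 475 and 773 in miR-199 replicates 1, 2 and 3, and 442 and 389 in vector replicates 1 and 3. In CPM this was 79.0, 38.5 and 58.8 in miR-199 against 26.0 and 26.3 in vector libraries. All 3 miR-199 libraries lay above both vector libraries, which were nearly equal. The log2 fold change was 1.04 (SE 0.31), and edgeR's quasi-likelihood test gave an adjusted p of 0.0616, which misses the threshold of 0.05. Over the 9 alternatives this adjusted p ran between 0.00784 and 0.307 and was under 0.05 in 4. It was 0.0492 without miR-199 replicate 1, the highest library, 0.0329 without replicate 2, the lowest, and 0.0948 without replicate 3. The log2 fold change was 0.99 without vector replicate 1 and 1.08 without vector replicate 3.

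The copies of miR-142 differed less. The gene mir142b had 12.7, 10.4 and 16.4 CPM in miR-199 replicates 1, 2 and 3, against 7.28 and 6.61 CPM in vector replicates 1 and 3, and no library held fewer than 98 counts of it. These groups did not overlap, and the log2 fold change was 0.79 (SE 0.28, edgeR adjusted p 0.0924). The gene mir142a had 9.29, 14.8 and 21.8 CPM in miR-199, against 12.9 and 10.5 CPM in vector, and no library held fewer than 135 counts of it. The groups overlapped, and the log2 fold change was 0.26 (SE 0.38, edgeR adjusted p 0.657); without miR-199 replicate 3 it was -0.083. None of the 3 members passed the test, which called 19.9% of the 8897 genes tested, 9.49% as higher. At an unadjusted edgeR p under 0.05 there were 2, mir223 with 0.0140 and mir142b with 0.0275, beside 36.9% of all genes tested. DESeq2 called mir223, with an adjusted p of 0.00784, and 30.1% of all genes to which it gave an adjusted p. For 2 of the 3 members the groups did not overlap, both higher in miR-199, against 57.5% of the genes tested, and 35.0% that were higher.

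**Figure D4:**
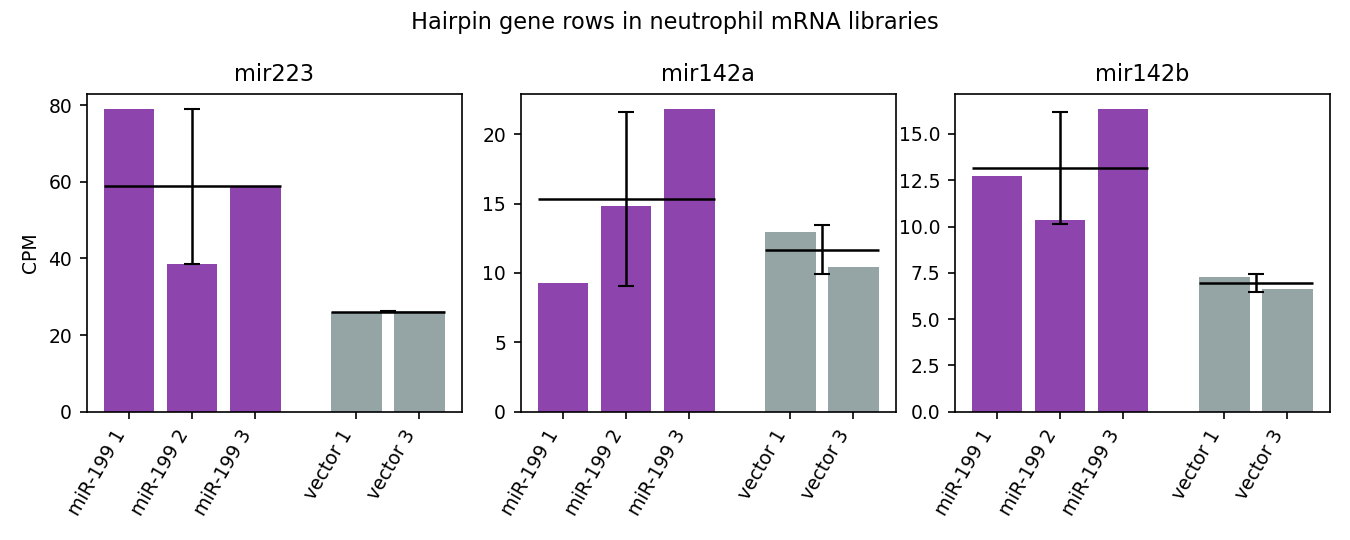
CPM of the hairpin genes mir223, mir142a and mir142b in neutrophil mRNA libraries, miR-199 (purple, n = 3) left of vector (grey, n = 2), with the mean as a line and the SD as an error bar; each panel has its own axis from 0. The miR-199 bars lie above both vector bars for mir223 and mir142b, and for mir142a miR-199 replicate 1 lies below them.

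The balance between the hairpins in these libraries differed from that of the small RNA neutrophil library. There were 3.59, 1.53 and 1.54 mir223 counts for each miR-142 count in miR-199 replicates 1, 2 and 3, and 1.28 and 1.54 in vector replicates 1 and 3, where the small RNA library had 8.32. Replicate 1 of miR-199 stood above the other 4. The a copy gave 42.2%, 58.8% and 57.2% of the miR-142 counts in the miR-199 libraries and 64.0% and 61.3% in the vector libraries, against 75.9% in small RNA. In the mRNA tables mir223 was counted over 2 loci (198 bases), and in the small RNA table over a hairpin of 99 bases. How reads that match both loci were counted is not given in the sources used here. The kits and the fish lines also differ between the small RNA and mRNA libraries. The part of these differences cannot be told apart from a difference between precursor and mature RNA.

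The listed genes nearest to the hairpins were read in the same libraries, chosen by position after the data were seen. The ferredoxin gene fdx1b, next to mir223 on the other strand, had 15, 538 and 569 counts in miR-199 libraries and 6 and 0 in vector libraries, with an edgeR adjusted p of 0.0518. The gene fdx1b was called by DESeq2 (adjusted p 0.00370), by edgeR with a minimum of 1 count in any library (adjusted p 0.0233) and by edgeR without miR-199 replicate 1 (adjusted p 0.00119), and in none of the other 6 alternatives. Its lowest miR-199 library was replicate 1, where mir223 was highest. The transcription elongation gene supt4h1, 43137 bases from mir142a, was lower, with a log2 fold change of -0.60 (SE 0.15, edgeR adjusted p 0.0385). The edgeR adjusted p of supt4h1 was 0.0766 without miR-199 replicate 2 and 0.133 with the replicate block. Its log2 fold change was -0.65 without vector replicate 1 and -0.56 without vector replicate 3. Of all genes tested, edgeR called 10.4% lower and 19.9% in either direction. DESeq2 called 30.1% of the genes to which it gave an adjusted p. The carbonic anhydrase gene ca4b had at most 4 counts in any library.

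Messenger RNAs published as miR-223 targets in mouse, human or zebrafish were described in the same neutrophils. Of 19 listed, 14 were in the tables and 12 were tested, of which 1 was called higher, 1 lower and 10 neither, with a median log2 fold change of 0.13 beside 0.019 over all genes. Of all genes 9.49% were called higher and 10.4% lower, 19.9% together. Per length, the most abundant in vector neutrophils was cebpb, a transcription factor of granulocytes, with an RPKM of 5388 ± 1362 in miR-199 (SD, n = 3) and 5245 ± 1171 in vector neutrophils (SD, n = 2). Next in vector neutrophils were stmn1a, which encodes the microtubule regulator stathmin, and cul1b, a scaffold of SCF ubiquitin ligases. stmn1a averaged 42.5 ± 18.5 RPKM in miR-199 and 104 ± 3.77 in vector neutrophils, and it fell by 1.42 on the log2 scale (SE 0.37, edgeR adjusted p 0.0440). cul1b averaged 51.2 ± 4.78 RPKM in miR-199 and 54.0 ± 1.58 RPKM in vector neutrophils and differed by -0.21 (SE 0.13). The transcription factor gene mef2cb had 46, 28 and 19 counts in miR-199 against 2 and 4 in vector libraries, and rose by 3.39 on the log2 scale (SE 0.73, edgeR adjusted p 0.0281). The edgeR adjusted p was 0.0823 for stmn1a without miR-199 replicate 3 and 0.0647 for mef2cb without miR-199 replicate 2. The log2 fold change of mef2cb was 4.10 without vector replicate 3 (edgeR adjusted p 0.195) and 2.87 without vector replicate 1 (edgeR adjusted p 0.228).

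Of 23 gene symbols listed for published miR-142 targets, 19 were in the tables and 14 were tested. The clock genes were listed under both bmal1 and arntl1 symbols, of which only the arntl1 ones were found. Of the 14 tested, 2 were called higher, 1 lower and 11 neither, with a median of 0.12. Of all genes 19.9% were called. The interferon regulatory factor irf7, a published target of miR-142 in zebrafish, had the highest RPKM of the list in vector neutrophils. It averaged 29.8 ± 8.46 RPKM in miR-199 (SD, n = 3) and 76.8 ± 6.05 RPKM in vector neutrophils (SD, n = 2), and was 2.83-fold lower in miR-199 neutrophils (SE of the log2 fold change 0.24, edgeR adjusted p 0.0142). After it in vector neutrophils came the chromatin protein gene hmgb1a, with 53.1 RPKM in miR-199 and 64.9 in vector, and the kinase adaptor gene tab2, with 34.1 RPKM in miR-199 and 28.8 in vector. The TGF-beta receptor gene tgfbr1b rose by 1.56 (SE 0.35, edgeR adjusted p 0.0312) and the clock gene arntl1a by 0.75 (SE 0.18, edgeR adjusted p 0.0385). The edgeR adjusted p of tgfbr1b was 0.0681 without miR-199 replicate 2 and 0.0520 without replicate 3, and that of arntl1a was 0.0694 without replicate 2. Without vector replicate 1, or without vector replicate 3, no gene of these target lists was called, where 2 and 0 of all genes were. The calls belong to the miR-199 comparison and are no measure of miR-223 or miR-142 activity.

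The genes that make and use microRNAs did not pass the edgeR test, which called 19.9% of all genes tested. Of 14 listed, 8 were in the tables and all 8 were tested, with a median of -0.044 and edgeR adjusted p-values no lower than 0.0717. At an unadjusted edgeR p under 0.05 there were 2, dgcr8 with 0.0181 and tarbp2 with 0.0223, and DESeq2 called the same 2 genes with adjusted p-values of 0.0349 and 0.0458. Over all genes the shares were 36.9% at that unadjusted p and 30.1% called by DESeq2. Without miR-199 replicate 3 the Argonaute gene ago3b was called, with an edgeR adjusted p of 0.0183, where 2195 of all genes were called. Per length the most abundant in vector neutrophils was ago4, an Argonaute, with 39.4 RPKM in miR-199 and 38.0 in vector neutrophils. Next were tarbp2, a partner of Dicer, with 24.2 RPKM in miR-199 and 29.7 in vector, and dgcr8, a partner of Drosha, with 16.2 RPKM in miR-199 and 11.2 in vector. The differences were -0.082 (SE 0.18) for ago4, -0.43 (SE 0.14) for tarbp2 and 0.40 (SE 0.13) for dgcr8 on the log2 scale.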

How the data were processed

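The deposited values are raw counts, per annotated hairpin in the small RNA table and per gene in the mRNA tables, with no normalization by the authors. The build (GRCz11) and the tools STAR 2.5, featureCounts, Subread 1.5.1 and edgeR 3.20.8 come from the submitters' processing notes, which give no role or order. The counting of reads with several placements is not given in the sources used here. Of the whole-embryo columns as deposited, 2 carry no replicate number and were used as unnumbered replicates. Vector replicate 2 was not analysed here.

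CPM was taken over all listed entries. The neutrophil, keratinocyte and whole-embryo libraries were compared by differences of log2(CPM + 1), with a call at 4-fold outside the whole-embryo range. The miR-199 and vector groups were tested by edgeR's quasi-likelihood method (glmQLFit, glmQLFTest, TMM, filterByExpr, Benjamini-Hochberg over 8897 genes, called under 0.05), tested on simulated data. Standard errors were obtained as the size of the log2 fold change over the square root of the F statistic. For small RNA the named entries are the members, their 3 nearest entries and those in lists by tissue. For mRNA they are the members, the called genes of each list and its 3 highest by vector RPKM. Members, lists and rules were chosen with earlier results of these data known. Replicate pairs differed beyond sampling noise, with a chi-square per degree of freedom of 11.9 to 178. Alternatives were other scalings, pseudocounts and filters, DESeq2, a replicate block and leaving out each replicate. Versions were R 4.3.3, edgeR 4.0.16, DESeq2 1.42.0, Python 3.11.15, numpy 2.4.6, pandas 2.3.3, scipy 1.17.1 and matplotlib 3.10.9.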

Additional observations from a re-analysis of the deposited data

Results flagged for a closer look

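The sorted libraries lay on opposite sides of whole embryo for dre-mir-142b, which was above all 3 whole-embryo libraries in neutrophils, with a log2 difference of 6.87, and below all 3 in keratinocytes, with -1.34. Each sorted group has 1 library, the keratinocyte value rests on 1 count, and the difference between them was not tested.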

How the results depend on the processing

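All log2 differences of the members between small RNA libraries kept their sign under every alternative run. With TMM scaling they were 9.89, 6.12 and 6.48 (mir223, dre-mir-142a and dre-mir-142b) for neutrophils over whole embryo, 1.97, 3.38 and -0.58 for keratinocytes over whole embryo, and 7.92, 2.74 and 7.06 for neutrophils over keratinocytes. With median-of-ratios scaling they were 10.53, 6.76 and 7.12, then 2.26, 3.67 and -0.30, then 8.27, 3.10 and 7.42, and 25 entries were called higher in keratinocytes in place of 12. Without the 5 most abundant entries in the total they were 9.87, 6.10 and 6.48, then 1.74, 3.15 and -0.83, then 8.13, 2.95 and 7.31. Without the members in the total, dre-mir-142a and dre-mir-142b were at 6.74 and 7.10 over whole embryo and at 4.17 and 8.44 over keratinocytes. With 5 CPM added, dre-mir-142b was at -1.12 for keratinocytes over whole embryo and 7.82 for neutrophils over keratinocytes. Leaving out each whole-embryo library gave 10.21 to 10.42, 6.45 to 6.62 and 6.76 to 6.95 for neutrophils, and 1.09 to 1.30, 2.51 to 2.67 and -1.45 to -1.27 for keratinocytes.

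In the mRNA libraries mir223 was called with DESeq2 (1.03) and with a minimum of 1 count in any library (1.04). Leaving out each replicate gave 0.79 to 1.27 for mir223, -0.083 to 0.54 for mir142a, which changed sign without miR-199 replicate 3, and 0.60 to 0.94 for mir142b. The number of called genes was 1772 as reported, 2673 with DESeq2 and 0 to 2195 without one replicate: 2 without vector replicate 1, 0 without vector replicate 3 and 926 without miR-199 replicate 2. Leaving out a vector library leaves 1, which is assumed to vary like the miR-199 group. With the replicate block 110 genes were called. Called counts were 0 with the replicate block and 0 to 2 without one replicate for miR-223 targets, 0 with the replicate block and 0 to 3 without one replicate for miR-142 targets, and 2 with DESeq2 and 0 to 1 without one replicate for microRNA biogenesis genes. The deviations of same-numbered libraries from their group means correlated at -0.24 and -0.19 across genes. With only 2 vector libraries their deviations mirror each other, so these values cannot decide whether the numbers pair the libraries. Depth limits the keratinocyte value of dre-mir-142b most, at 1 count. The cause of these changes was not tested.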
